A study of Bos taurus with 10 samples.

Results

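Mammary gland of cows at peak lactation was compared with visceral adipose tissue, the fat of the mesentery and of the omentum. The comparison used 6 of the 10 two-colour cDNA microarrays of the series, chosen by the tissue each array was labelled with: 2 arrays of mammary gland, 2 of mesenteric adipose tissue and 2 of omental adipose tissue. The 2 arrays of a tissue carried the same kind of RNA sample in opposite dyes, once in Cy3 and once in Cy5, and every array held the same standard, mixed from several tissues, in the other dye. The labels give the species (Bos taurus), the tissue and the stage of lactation, and no breed, age, diet or number of animals, so each tissue was treated as 1 sample, and no p-value between tissues is given. Liver and subcutaneous adipose tissue filled the other 4 arrays and stood outside the comparison.

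Values are log2 ratios of tissue over standard, with the median of each array set to 0. A difference is mammary gland minus the mean of the 2 visceral depots, so a positive value means more in mammary gland, and the number after ± is the distance of either dye orientation's difference from their mean (1 RNA sample per tissue). A gene was called higher or lower when its mean difference reached 1 log2 unit, which is 2-fold, with the same sign in both orientations. This is a rule of size and not a test. The direction of the ratios is likely and not stated by the labels. Where per-array values are given in pairs, the first is the array with the tissue in Cy3 and the second the array with the tissue in Cy5. Gene names rest on a rebuilt print layout, and a single clone may carry a wrong name.

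The lactating mammary gland is built of alveoli, whose secretory epithelium takes up glucose, acetate, amino acids, fatty acids and minerals from blood and releases milk protein, lactose and fat into the lumen. Milk protein is folded in the endoplasmic reticulum and leaves with lactose in Golgi vesicles, whereas milk fat leaves as droplets that are wrapped in apical cell membrane. Visceral adipose tissue stores triglyceride in adipocytes, which lie among capillaries, fibroblasts and macrophages, and it releases fatty acids when milk takes more energy than feed supplies.

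Of 4318 named genes with a value on the 6 arrays, 141 were higher in mammary gland (3.27%) and 272 were lower (6.30%), together 9.56%. The dye contrast sets the 2 orientations against each other and holds no difference between tissues. In it 24 genes (0.556%) reached the same size with opposite signs in the orientations. Genes with the same sign in both were not counted there, so 24 is a lower bound. Among the called genes it leaves out are SREBF1, JUN and COPZ2, whose number after ± also passed 1 log2 unit. They are examples and not a full list. STX1A, also called, ran from 0.35 to 3.46 in settings that kept a single orientation or left out 1 visceral array within its orientation. Between mesenteric and omental adipose tissue 50 genes passed the rule (1.16%). The SD of the difference over genes was 0.66 log2 units, against 0.24 in the dye contrast and 0.30 between the visceral depots. Both depots lay past 2-fold on the same side for 120 of the 141 higher genes and 202 of the 272 lower genes. The split between the directions depended on the centring: without it 185 genes were higher and 189 lower, and the median difference of all genes was 0.14 in place of -0.02, so small shifts of a whole gene group are read against that offset. With quantile normalisation 162 genes were higher and 242 lower. Each array had values for 15970 to 16243 of its 16416 spots, the signal over background is unknown, and precision is limited by there being so few arrays.

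The labelled tissues were checked against markers of their cells. Mammary epithelium had 9 of 12 markers measured, of which 7 were higher in mammary gland and 0 lower, with a median difference of 2.52. Their levels ran between -2.16 and 4.50 in mammary gland, against -3.23 and 1.49 in the visceral mean. Adipocytes had 3 of 10 markers measured (RBP4, LIPE and CEBPA), and all 3 were lower, at levels between -3.09 and 0.31 in mammary gland, against 1.0019 and 2.22 in the visceral mean. The casein genes, LALBA, ADIPOQ, LEP, PLIN1 and FABP4 were not among the genes analysed here. All 3 measured fibroblast markers of 5 were lower (levels -2.27 to 0.59 in mammary gland, 1.58 to 3.01 in the visceral mean), as were 2 of 3 measured endothelial markers of 4 (1.25 to 1.48, and 1.92 to 2.66) and 4 of 5 measured macrophage markers of 6 (0.10 to 0.53, and 0.26 to 2.65). None of these levels is a true zero, being a ratio to the standard, and the 2 lymphocyte markers CD3D and CD3E stood at 0.72 ± 0.40 and 0.84 ± 0.61, short of the rule. None of the markers chosen for mesothelium, red cells, skeletal muscle and exocrine pancreas was measured. Other muscle genes, ACTN2 at -0.69 ± 0.03 and TCAP at -0.29 ± 0.13, did not pass, and the 2 measured hepatocyte markers, TF at -0.93 ± 0.02 and APOA1 at 0.10 ± 0.22, did not pass. In whole tissue, fewer cells of a type and less RNA per cell cannot be told apart, and the part that the mix of cells plays in the differences below was not tested.

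DNAJC12, a co-chaperone of the heat shock proteins, stood at 4.14 and 4.35 in mammary gland, against -1.04 and -1.14 in mesenteric and -0.70 and -0.88 in omental adipose tissue. Its difference of 5.19 ± 0.17 (36.4-fold) was the largest of all named genes, and no visceral array came near the mammary arrays. EHF, a transcription factor of epithelial cells, stood at 3.28 and 3.84 in mammary gland, against -0.48 and -1.19 in mesenteric and -0.46 and -0.96 in omental adipose tissue, a difference of 4.33 ± 0.59 (20.1-fold). RETREG1, a receptor that sends parts of the endoplasmic reticulum to lysosomes, stood at 2.72 and 2.89 in mammary gland, against -0.92 and -1.16 in mesenteric and -0.91 and -1.19 in omental adipose tissue (3.85 ± 0.22, 14.4-fold). The depots were alike in this gene. ASB11, a member of the ankyrin repeat and SOCS box family, differed by 3.08 ± 0.32 over 3 elements, which ran from 1.56 to 4.16. C3H1orf210 differed by 2.53 ± 0.17 on 1 element.

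**Figure D1:**
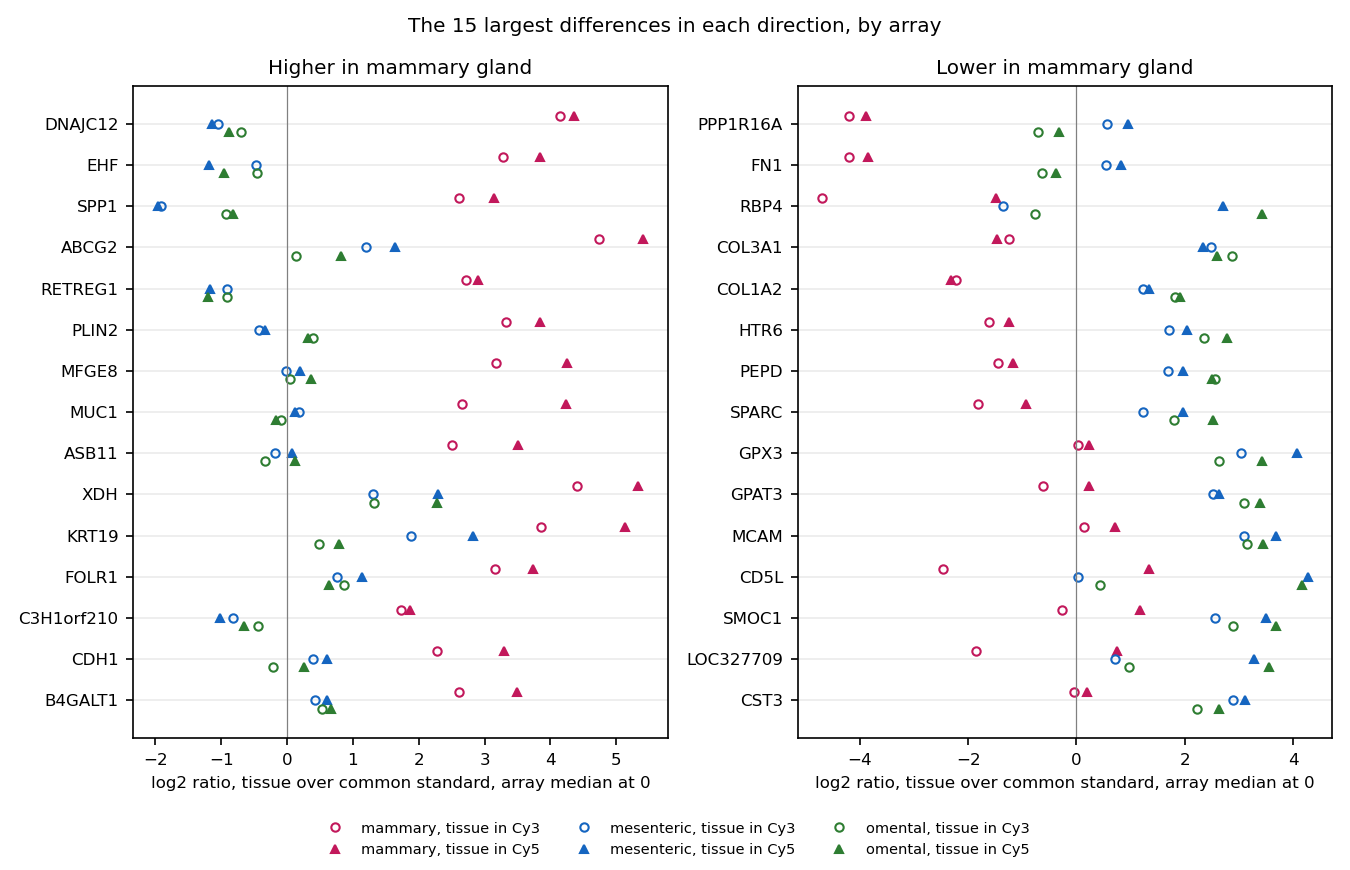
Log2 ratios of tissue over standard (x axis) on each of the 6 arrays for the 15 genes of largest difference higher (left panel) and lower (right panel) in mammary gland, with circles for arrays that carried the tissue in Cy3 and triangles for Cy5. In the left panel every mammary array lies to the right of every visceral array, and RBP4, CD5L and LOC327709 in the right panel show wide gaps between circles and triangles of the same tissue.

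Milk protein and fat globule genes had 7 of 11 measured members higher in mammary gland and 2 lower, with a median difference of 3.07, beside 3.27% of all genes higher and 6.30% lower. The 7 higher members held in each of 6 settings that left out 1 visceral array within its orientation or kept a single orientation. Genes of 4 proteins of the fat globule and its membrane, PLIN2, XDH, MFGE8 and MUC1, were among them. PLIN2, which covers the cytoplasmic lipid droplet, stood at 3.33 and 3.84 in mammary gland, against -0.42 and -0.34 in mesenteric and 0.39 and 0.31 in omental adipose tissue (3.60 ± 0.26, 12.1-fold). XDH, a purine oxidase that also joins the droplet to the apical membrane, stood at 4.40 and 5.33 in mammary gland, against 1.30 and 2.30 in mesenteric and 1.32 and 2.28 in omental adipose tissue (3.07 ± 0.03, 8.39-fold). The depots gave nearly the same XDH values. MFGE8, a membrane glycoprotein of the globule, stood at 3.17 and 4.25 in mammary gland, against -0.01 and 0.19 in mesenteric and 0.05 and 0.36 in omental adipose tissue (3.57 ± 0.41, 11.8-fold). MUC1, the transmembrane mucin of the globule membrane, stood at 2.66 and 4.23 in mammary gland, against 0.18 and 0.12 in mesenteric and -0.09 and -0.16 in omental adipose tissue (3.43 ± 0.82). The mammary arrays of MUC1 lay 1 to 2 units apart, and both were far above the 4 visceral arrays.

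Secreted and transported members of the same list were also higher. SPP1 (osteopontin), a phosphoprotein of milk that macrophages make as well, stood at 2.61 and 3.14 in mammary gland, against -1.92 and -1.96 in mesenteric and -0.93 and -0.82 in omental adipose tissue (4.28 ± 0.25, 19.5-fold). Its 2 elements gave 2.9989 and 5.5655, and it averaged 2.51 in the subcutaneous adipose sample. ABCG2, which pumps riboflavin and drugs into milk, stood at 4.73 and 5.41 in mammary gland, against 1.20 and 1.65 in mesenteric and 0.14 and 0.82 in omental adipose tissue (4.12 ± 0.06, 17.4-fold), and averaged 2.90 in liver. FOLR1, a folate receptor, differed by 2.60 ± 0.24. CST3 (cystatin C), a protease inhibitor found in milk and made by many cells, ran the other way. It stood at -0.05 and 0.19 in mammary gland, against 2.89 and 3.12 in mesenteric and 2.22 and 2.64 in omental adipose tissue (-2.65 ± 0.04, 6.27-fold lower). FCGRT, the heavy chain of the Fc receptor that carries immunoglobulin G, was lower at -1.05 ± 0.13 over 4 elements, and not past 2-fold in the Cy3 orientation (-0.92). PLIN3, another droplet coat protein, stood at 0.71 ± 0.05 and CIDEA, which in mice promotes milk lipid secretion, at 0.34 ± 0.02, and neither passed.

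Lactose synthesis had 2 of 7 measured genes higher and 0 lower, with a median of 0.11. B4GALT1, the galactosyltransferase that joins alpha-lactalbumin to form lactose synthase, stood at 2.61 and 3.49 in mammary gland, against 0.43 and 0.61 in mesenteric and 0.54 and 0.66 in omental adipose tissue (2.49 ± 0.36, 5.61-fold). SLC2A1, the glucose transporter GLUT1, stood at 0.33 on both mammary arrays, against -1.70 and -1.77 in mesenteric and -1.30 and -1.79 in omental adipose tissue (1.97 ± 0.14, 3.91-fold). The sugar nucleotide steps between these were closer to the depots. SLC35A2, which brings UDP-galactose into the Golgi, stood at 0.27 ± 0.04, GALK1 at 0.11 ± 0.07, GALT at -0.22 ± 0.07 and the hexokinase gene HK1 at -0.22 ± 0.32. SLC2A3, another glucose transporter gene, stood at -0.56 ± 0.14.

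Lipid genes went in both directions by step. Of 17 genes of milk fat synthesis 4 were higher in mammary gland, 7 were lower and 6 did not pass (median -0.57). All 7 lower calls held in the 6 settings, and of the 4 higher calls only AGPAT1 did. ACSS1, which activates acetate in mitochondria, stood at 2.06 and 2.80 in mammary gland, against 1.22 and 1.06 in mesenteric and 1.11 and 1.06 in omental adipose tissue (1.32 ± 0.42). In the citrate route to cytosolic acetyl-CoA, ACLY lay on the other side. ACLY, which splits citrate, stood at -0.34 and -0.82 in mammary gland, against 1.27 and 1.20 in mesenteric and 2.45 and 2.15 in omental adipose tissue (-2.35 ± 0.15, 5.08-fold lower). The enzymes that supply NADPH followed ACLY, with ME1 (malic enzyme) at -1.70 ± 0.10 and the mitochondrial isocitrate dehydrogenase gene IDH2 at -1.95 ± 0.46. In the pentose phosphate pathway TKT (transketolase) stood at -2.30 ± 0.15. Of genes that activate or carry fatty acids, DBI, the acyl-CoA binding protein, was lower at -2.33 ± 0.04, FABP5, a fatty acid binding protein, at -1.62 ± 0.07 over 4 elements and the acyl-CoA synthetase gene ACSL1 at -1.35 ± 0.24, while its relative ACSL5 stood at -0.57 ± 0.22 and did not pass. ELOVL1, which lengthens very long fatty acids, stood at 0.80 ± 0.10 and did not pass.

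Genes of the successive esterification steps differed in direction. GPAT3, an acyltransferase that starts triglyceride synthesis, stood at -0.62 and 0.22 in mammary gland, against 2.52 and 2.64 in mesenteric and 3.10 and 3.39 in omental adipose tissue (-3.11 ± 0.32, 8.62-fold lower). AGPAT1, an enzyme of the next step, stood at 1.07 and 1.59 in mammary gland, against -0.08 and -0.19 in mesenteric and -0.28 and -0.23 in omental adipose tissue (1.53 ± 0.28). The groups did not overlap in either gene. AGPAT2 passed the rule at 1.17 ± 0.22 through 1 array: it stood at 0.67 and -0.29 in mammary gland, against -0.16 and -4.37 in mesenteric and -0.41 and 1.01 in omental adipose tissue. Without the mesenteric array at -4.37 its difference was -0.17, and against omental adipose tissue alone it was -0.11. AGPAT3 (0.02 ± 0.10) and LPIN3 (0.19 ± 0.06), which removes phosphate from phosphatidate, did not pass. SREBF1, the gene of a transcription factor that drives lipogenesis, passed at 1.9545 ± 1.502 with mammary values of 3.05 and -0.26, against -0.71 and -0.93 in mesenteric and -0.11 and -0.49 in omental adipose tissue, so the difference was 3.46 in the Cy3 orientation and 0.45 in the Cy5 orientation. MLXIPL, a glucose-responsive regulator of lipogenesis, stood at -0.76 ± 0.16 and INSIG2, which holds SREBF1 protein back, at 0.01 ± 0.19.

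**Figure D2:**
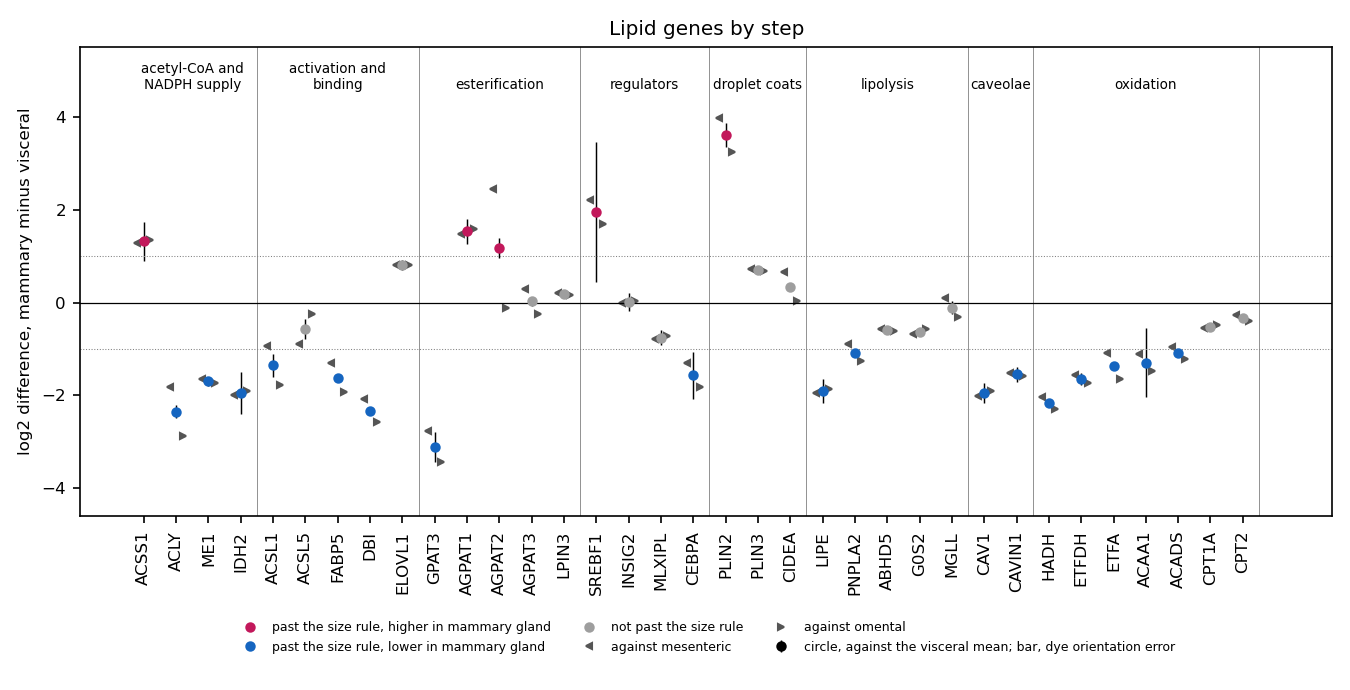
Log2 difference, mammary gland minus visceral adipose tissue (y axis), of lipid genes ordered by step (x axis), with circles for the difference from the visceral mean, bars for the dye orientation error, and triangles for the difference from each depot. PLIN2 (3.60) and AGPAT1 (1.53) lie above the dotted 2-fold line, whereas ACLY (-2.35), GPAT3 (-3.11), LIPE (-1.91) and HADH (-2.17) lie below it, and the triangles of AGPAT2 stand on either side of 0.

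Genes of adipocytes had 9 of 18 measured members lower in mammary gland and 0 higher, with a median of -0.87, and 8 of the 9 held in the 6 settings. With subcutaneous adipose tissue added to the mean 5 were lower (median -0.52). RBP4, the retinol carrier that adipocytes and liver secrete, stood at -4.70 and -1.49 in mammary gland, against -1.35 and 2.71 in mesenteric and -0.77 and 3.42 in omental adipose tissue. The 2 dyes differed by 3 to 4 units within each tissue, and within either orientation mammary gland lay lowest, which gave -4.09 ± 0.46 (17.1-fold lower). LIPE, the hormone-sensitive lipase, stood at 0.29 and 0.33 in mammary gland, against 1.92 and 2.59 in mesenteric and 1.96 and 2.40 in omental adipose tissue (-1.91 ± 0.26, 3.75-fold lower). PNPLA2, which takes the first fatty acid from triglyceride, was lower at -1.08 ± 0.08 and reached -0.9982 in the Cy5 orientation. Its activator ABHD5 (-0.60 ± 0.09), its inhibitor G0S2 (-0.62 ± 0.06) and the monoglyceride lipase gene MGLL (-0.11 ± 0.14) did not pass. CAV1, the main protein of caveolae, and CAVIN1, which shapes them, were lower at -1.95 ± 0.21 and -1.55 ± 0.16. CEBPA, a transcription factor of fat cells, was lower at -1.56 ± 0.50, while CEBPB stood at 0.03 ± 0.57 and CFD (adipsin) at -0.08 ± 0.04. PDK4, which restrains glucose oxidation, was lower at -1.14 ± 0.11.

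Most measured mitochondrial genes stood below 0, few of them past 2-fold. Fatty acid oxidation had 5 of 15 genes lower and 0 higher (median -0.65). HADH, of the beta-oxidation spiral, stood at -1.09 and -0.32 in mammary gland, against 0.93 and 1.74 in mesenteric and 1.10 and 2.07 in omental adipose tissue (-2.17 ± 0.06, 4.49-fold lower). The electron transfer genes ETFDH (-1.64 ± 0.12) and ETFA (-1.36 ± 0.03) and the dehydrogenase gene ACADS (-1.09 ± 0.03) were lower too. CPT1A, which controls entry of fatty acids into mitochondria, stood at -0.52 ± 0.09 without passing. The respiratory chain had 10 of 47 genes lower and 0 higher (median -0.57), but 4 lower without centring (median -0.40) and 5 with quantile normalisation. COX5B, a subunit of cytochrome c oxidase, stood at -1.07 and -1.12 in mammary gland, against 0.18 and 0.21 in mesenteric and 0.73 and 0.46 in omental adipose tissue (-1.49 ± 0.04). The complex I genes NDUFB8 (-1.38 ± 0.21) and NDUFA10 (-1.28 ± 0.03) were lower, while NDUFB10 stood at 0.25 ± 0.11, the highest member. The citric acid cycle and pyruvate list had 5 of 18 genes lower (median -0.78), and 2 without centring.

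Glycolysis and lactate genes, counted with TKT, had 4 of 15 members lower and 0 higher (median -0.45), and the median was -0.10 with quantile normalisation. ALDOA (aldolase) stood at -1.71 ± 0.08, PGAM1 at -1.36 ± 0.08 over 3 elements and LDHA, which makes lactate, at -1.09 ± 0.09. The rate-setting phosphofructokinase genes PFKL (0.49 ± 0.11) and PFKP (0.20 ± 0.39) did not pass. Cholesterol synthesis was split among 5 genes. MSMO1, a demethylation step of the sterol branch, stood at -0.71 and 0.83 in mammary gland, against -2.29 and -1.25 in mesenteric and -2.01 and -0.89 in omental adipose tissue (1.67 ± 0.23). ACAT2, which joins acetyl-CoA units in the cytosol, was lower at -1.97 ± 0.20, and IDI1 at -1.29 ± 0.53.

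Endoplasmic reticulum translocation and folding genes had 6 of 46 members higher and 0 lower, beside 3.27% of all genes higher and 6.30% lower. The 6 include DNAJC12 and RETREG1, which are among the largest differences of all named genes. The list was written with earlier results of these data known, so its share was not set in advance. Of the 46 members 36 lay above 0, and the median was 0.43, beside a median of -0.02 over all genes. Without centring 9 were higher (median 0.59), and with subcutaneous adipose tissue added to the mean 5 were (median 0.32). Of the 6 higher members 4 held in the 6 settings, and SSR3 and SYVN1 did not. Apart from DNAJC12 and RETREG1, the higher members act where new proteins enter the reticulum or leave it for degradation. TRAM1, which helps nascent chains through the membrane, stood at 0.32 and 0.87 in mammary gland, against -1.14 and -0.78 in mesenteric and -0.95 and -0.58 in omental adipose tissue (1.46 ± 0.09). SEC11C, a catalytic subunit of signal peptidase, differed by 1.25 ± 0.14, SSR3, of the translocon-associated complex, by 1.11 ± 0.12 and SYVN1, a ubiquitin ligase for misfolded proteins, by 1.12 ± 0.16. The chaperone genes HSP90B1 (-0.03 ± 0.11) and PDIA4 (-0.04 ± 0.04) did not pass, and PPIB, a folding enzyme that also serves collagen, had the lowest value (-0.60 ± 0.15). Golgi and vesicle transport genes had 4 of 90 higher and 0 lower (median 0.12), a share near the 3.27% of all genes, and 2 of the 4 held in the 6 settings. The list left out AP2A2, AP1S3 and STX1A, which were also called higher, so the share depends on its members. AP2A2 held in the 6 settings (1.88 to 2.28), and AP1S3 and STX1A did not. Within the list RAB18, a small GTPase of lipid droplets, had the highest value. RAB18 stood at 1.52 and 2.59 in mammary gland, against -0.02 and 0.74 in mesenteric and -0.02 and 0.79 in omental adipose tissue (1.68 ± 0.14). COPZ2 followed at 1.35 ± 1.07, and its call was lost in at least 1 of the 6 settings (0.28 to 2.42). MCFD2, a cargo receptor subunit, came next at 1.17 ± 0.03.

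Ribosomes went the other way: cytosolic ribosomal protein genes had 12 of 45 members lower and 0 higher, 4 lay above 0, and the median was -0.59. With quantile normalisation 7 were lower (median -0.40), and 6 of the 12 held in the 6 settings. RPL37 stood at -1.47 and -2.27 in mammary gland, against 0.07 and 0.11 in mesenteric and -0.13 and -0.41 in omental adipose tissue (-1.78 ± 0.34). RPS15A, the highest member, stood at 0.58 ± 0.48. Ribosomal protein genes have many near-identical copies, and cross-hybridisation of their clones was not tested. Translation factors and tRNA synthetases had 1 of 48 genes lower, EIF4B at -1.45 ± 0.02, beside 6.30% of all genes lower. Their median of -0.06 was 0.11 without centring. None of 29 proteasome genes passed, and their median of -0.01 turned to 0.15 without centring.

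Transport genes were mostly short of the rule. Ion, mineral and vitamin transporters had 3 of 17 higher and 1 lower (median 0.21), beside 3.27% of all genes higher and 6.30% lower. SLC30A4, the zinc exporter that loads milk, stood at 2.76 and 3.84 in mammary gland, against 0.94 and 1.53 in mesenteric and 0.99 and 1.27 in omental adipose tissue (2.12 ± 0.32, 4.34-fold). ATP2C2, a calcium and manganese pump of the secretory pathway, stood at 2.07 and 3.28 in mammary gland, against 0.65 and 1.05 in mesenteric and 1.09 and 1.04 in omental adipose tissue (1.72 ± 0.52). SLC39A8, which imports zinc and manganese, differed by 1.75 ± 0.09, but its 2 elements gave -0.41 and 3.91. SLC40A1 (ferroportin), the iron exporter, was lower at -1.91 ± 0.18. Of 5 amino acid transporters none was higher. SLC3A2, the shared heavy chain of several of them, stood at 0.68 ± 0.02, and SLC1A3, a glutamate transporter, was lower at -1.95 ± 0.12. Among 17 lactogenic and endocrine signalling genes 1 was lower and 0 higher, beside 6.30% of all genes lower. This was IGFBP4, a binding protein of insulin-like growth factors, at -1.13 ± 0.14, with 3 elements from -1.88 to 0.04. Its call was lost in at least 1 of the 6 settings (-1.27 to -0.9972). It was also lost without centring and with subcutaneous adipose tissue added to the mean. AKT1 stood at 0.53 ± 0.19, STAT3 at -0.12 ± 0.21 and IGFBP5 at -0.00 ± 0.27.

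Epithelial genes had 13 of 33 measured members higher in mammary gland and 2 lower (median 0.71), and 9 of the 13 held in the 6 settings. KRT19, a keratin of simple epithelia that mesothelium also makes, stood at 3.86 and 5.14 in mammary gland, against 1.88 and 2.82 in mesenteric and 0.48 and 0.79 in omental adipose tissue (3.01 ± 0.33). It was 2.15 above mesenteric and 3.86 above omental adipose tissue, so the depots differed. CDH1 (E-cadherin), the adhesion protein of epithelia, stood at 2.28 and 3.29 in mammary gland, against 0.39 and 0.61 in mesenteric and -0.21 and 0.26 in omental adipose tissue (2.52 ± 0.33, 5.74-fold), and averaged 2.27 in the subcutaneous sample. ESRP1, a splicing regulator of epithelial cells, differed by 2.30 ± 0.21, SCNN1A, a subunit of the epithelial sodium channel, by 1.98 ± 0.57 and the tight junction gene OCLN by 1.58 ± 0.09. Keratin genes were unequal, with KRT8 at 1.59 ± 0.55, KRT15 at 1.41 ± 0.19 and KRT18, the partner of KRT8, at 0.56 ± 0.05 over 3 elements. EPCAM, an adhesion protein of many epithelia, stood at 0.50 ± 0.01 and the claudin gene CLDN7 at 0.29 ± 0.20. SPINT1, a protease inhibitor of epithelia, was lower at -1.65 ± 0.34 and its relative SPINT2 higher at 1.71 ± 0.63, with elements at 0.07 and 3.35. The tight junction genes TJP3 (1.10 ± 0.35) and CGN (1.08 ± 0.27), the protease gene ST14 (1.43 ± 0.55) and LAD1 (1.16 ± 0.21) were higher, though not in each of the 6 settings. The polarity gene CRB3 was lower at -1.10 ± 0.09, though not in each of the 6 settings (-1.29 to -0.92). The polarity genes PARD6B (-0.34 ± 0.17), LLGL2 (-0.25 ± 0.22) and PARD3 (0.23 ± 0.04) did not pass. Of the genes listed for mesothelium, the keratins KRT8, KRT18 and KRT19 were the 3 measured, and 2 of them were higher.

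The matrix of connective tissue gave the largest differences in the other direction. Of 25 interstitial matrix and fibroblast genes 18 were lower in mammary gland, 0 higher and 7 not past (median -1.83), and 16 of the 18 held in the 6 settings. FN1 (fibronectin), which links cells to matrix, stood at -4.19 and -3.85 in mammary gland, against 0.54 and 0.82 in mesenteric and -0.63 and -0.38 in omental adipose tissue (-4.11 ± 0.04, 17.3-fold lower). COL3A1, the chain of type III collagen, stood at -1.24 and -1.47 in mammary gland, against 2.48 and 2.33 in mesenteric and 2.87 and 2.59 in omental adipose tissue (-3.92 ± 0.01, 15.2-fold lower). COL1A2, of type I collagen, stood at -2.22 and -2.31 in mammary gland, against 1.22 and 1.35 in mesenteric and 1.82 and 1.91 in omental adipose tissue (-3.84 ± 0.10, 14.4-fold lower). All 4 visceral arrays lay more than 3 units above the mammary arrays in each of these genes. SPARC, a collagen-binding protein, followed at -3.26 ± 0.08, the small proteoglycan genes DCN and FMOD at -2.43 ± 0.22 and -2.51 ± 0.10, and the protease gene MMP2 at -2.15 ± 0.06. FBLN1 and MFAP4 differed between the depots, with FBLN1 at -2.80 against mesenteric and -1.39 against omental adipose tissue, and MFAP4 at -1.82 and -0.64. FBLN2 (0.14 ± 0.21), THBS1 (-0.34 ± 0.14) and the protease inhibitor gene TIMP3 (-0.29 ± 0.04) did not pass. The collagen-processing gene PEPD stood at -3.48 ± 0.09. The elements named PPP1R16A (-4.16 ± 0.04) and HTR6 (-3.64 ± 0.01), whose names belong to a phosphatase subunit and a serotonin receptor, followed matrix genes closely: PPP1R16A lay within 0.227 of FN1 on each of the 10 arrays, and HTR6 within 0.275 of PEPD.

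Basement membrane genes were split. Of 9 genes 4 were lower and 0 higher, with a median of -0.10. The median was 0.07 with centring left out or with quantile normalisation, and -0.92 when both spots were required on all arrays. COL4A1, a chain of type IV collagen, stood at 0.56 and 0.75 in mammary gland, against 2.49 and 2.79 in mesenteric and 2.96 and 3.14 in omental adipose tissue (-2.19 ± 0.02, 4.56-fold lower). The laminin genes LAMA4 (-2.16 ± 0.11), LAMB1 (-1.76 ± 0.19) and LAMC1 (-1.74 ± 0.05), whose products join in 1 laminin of vessels and fat, were lower, whereas LAMA5, the chain of epithelial basement membranes, stood at -0.10 ± 0.07 over 4 elements. COL4A2, the partner of COL4A1, stood at 0.21 ± 0.89, HSPG2 (perlecan) at 0.12 ± 0.15 and AGRN (agrin) at 0.25 ± 0.09.

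Endothelial and lymphatic genes had 8 of 14 members lower and 0 higher (median -1.14), and 3 lower with subcutaneous adipose tissue added to the mean (median -0.72). LYVE1, a receptor of lymphatic endothelium and some macrophages, stood at -0.63 and -0.12 in mammary gland, against 1.53 and 2.09 in mesenteric and 1.57 and 2.55 in omental adipose tissue (-2.31 ± 0.13). PECAM1, an adhesion protein of endothelium, stood at 1.06 and 1.74 in mammary gland, against 2.77 and 3.05 in mesenteric and 2.21 and 2.63 in omental adipose tissue (-1.26 ± 0.16). The water channel gene AQP1 (-1.43 ± 0.00), the angiopoietin receptor gene TEK (-1.24 ± 0.13) and CDH5, the endothelial cadherin (-1.14 ± 0.06), were lower, while the receptor gene KDR (-0.68 ± 0.15) and PLVAP, of capillary pores (0.37 ± 0.11), did not pass. Of 15 smooth muscle, pericyte and myoepithelial genes 4 were lower and 0 higher (median -0.64), and 1 was lower with subcutaneous adipose tissue in the mean. MCAM, an adhesion protein of vessel walls, stood at 0.13 and 0.72 in mammary gland, against 3.10 and 3.68 in mesenteric and 3.15 and 3.45 in omental adipose tissue (-2.92 ± 0.07, 7.57-fold lower). The contractile genes MYH11 (-0.69 ± 0.05), TAGLN (-0.62 ± 0.02) and MYL9 (0.33 ± 0.04) did not pass.

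Macrophage and granulocyte genes had 10 of 31 members lower in mammary gland and 1 higher, SPP1, with a median of -0.60. With subcutaneous adipose tissue added to the mean 19 were lower (median -1.40), so the count depends on which depots are used. The 3 genes of complement C1q, which tissue macrophages make, were all lower. C1QA stood at -0.34 and 0.77 in mammary gland, against 1.84 and 3.38 in mesenteric and 1.83 and 3.53 in omental adipose tissue (-2.43 ± 0.25), with C1QB at -2.20 ± 0.39 and C1QC at -1.86 ± 0.44. VSIG4, a complement receptor of resident macrophages, was lower at -2.41 ± 0.35, the lysosomal protein gene CD68 at -1.49 ± 0.13 and the protease gene CTSK at -2.02 ± 0.02. CD5L, a secreted macrophage protein, differed by -2.79 ± 0.09. It stood at -2.47 and 1.34 in mammary gland, against 0.03 and 4.27 in mesenteric and 0.43 and 4.16 in omental adipose tissue, so the dyes lay about 4 units apart in every tissue and the arrays overlapped unless read within an orientation. CD14, the lipopolysaccharide co-receptor, stood at 0.97 ± 0.19, just short of the rule on the higher side, and CD163, a scavenger receptor, at 0.18 ± 0.02. Of 13 lymphocyte genes ZAP70, a kinase of the T cell receptor, was higher at 1.28 ± 0.37 and CD48 lower at -1.01 ± 0.13 (median 0.17), and neither held in the 6 settings. Antigen presentation had 2 of 11 genes lower, TAP2 (-1.06 ± 0.17) and FCGRT, and interferon response 1 of 8 higher, IFI35 (1.06 ± 0.39). Their medians of -0.04 and -0.03 were 0.13 and 0.13 without centring, and no call of either list held in the 6 settings. Of all genes 3.27% were higher and 6.30% lower.

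**Figure D3:**
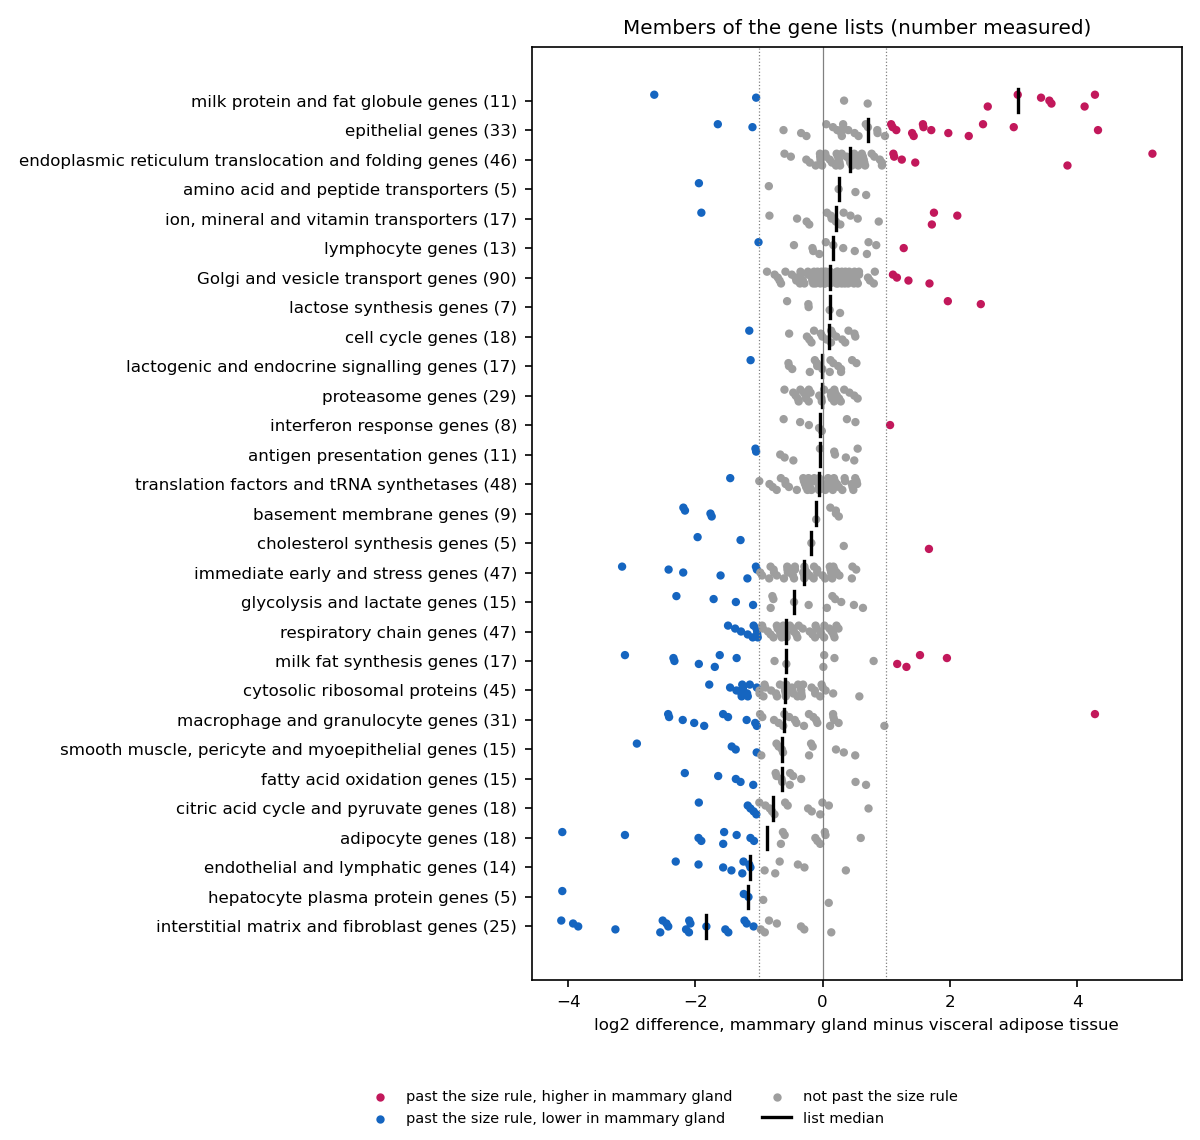
Log2 difference, mammary gland minus visceral adipose tissue (x axis), of every measured member of the 29 gene lists with at least 5 measured members (y axis, in order of the list median, number measured in brackets), with a black bar for the list median and dotted lines at 2-fold. Milk protein and fat globule genes lie highest (median 3.07) and interstitial matrix genes lowest (median -1.83), and 18 of the 25 matrix genes lie left of the lower dotted line.

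Immediate early and stress genes had 7 of 47 members lower and 0 higher (median -0.29), and 4 with quantile normalisation. GPX3, the secreted glutathione peroxidase, stood at 0.03 and 0.24 in mammary gland, against 3.03 and 4.07 in mesenteric and 2.63 and 3.42 in omental adipose tissue (-3.15 ± 0.35, 8.90-fold lower). CAT (catalase) stood at -3.37 and -0.57 in mammary gland, against -1.12 and 1.89 in mesenteric and -1.04 and 2.09 in omental adipose tissue (-2.42 ± 0.14). GPX4, which repairs oxidised membrane lipid, was lower at -1.05 ± 0.01, though not in each of the 6 settings. Other antioxidant genes of the list were nearer 0: GSR stood at 0.47 ± 0.17, SOD2 at 0.19 ± 0.14, PRDX1 at 0.15 ± 0.11, PRDX5 at 0.14 ± 0.20, NQO1 at 0.13 ± 0.13, TXNRD1 at 0.11 ± 0.06, GPX1 at -0.14 ± 0.13 and SOD1 at -0.20 ± 0.00, and none of these passed. The immediate early genes, which respond to handling of tissue, were uneven. JUNB was lower at -2.19 ± 0.07 with elements at -4.08 and -0.31, and JUN at -1.60 ± 1.09, while FOS (0.00 ± 0.20) and EGR1 (0.12 ± 0.01) did not pass. Among 18 cell cycle genes 1 was lower, STMN1 (stathmin) at -1.15 ± 0.14, beside 6.30% of all genes lower. Without centring, and with quantile normalisation, 0 were lower. PCNA stood at 0.06 ± 0.02. Of 5 hepatocyte plasma protein genes 3 were lower (RBP4, C4A at -1.24 ± 0.37 and SERPING1 at -1.17 ± 0.43), and 1 of these, RBP4, held in the 6 settings.

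The visceral depots gave similar differences for most leading genes. The mammary gland lay 0.68 (SD over genes) from mesenteric and 0.66 from omental adipose tissue. Of the called genes 1, AGPAT2, had the depots on opposite sides of mammary gland, and FEM1B, a substrate receptor of a ubiquitin ligase, passed at 1.06 ± 0.19 although it stood 2.05 above mesenteric and 0.07 above omental adipose tissue, whose values were -0.82 and -4.53 in mesenteric and -0.96 and -0.43 in omental adipose tissue. On every array, mammary values lay outside the range of the 4 visceral values for 128 of the 141 higher and 241 of the 272 lower genes, beside 42.2% of all genes. Past 4-fold were 26 genes higher and 47 lower, and past 8-fold 11 higher and 10 lower. At the threshold itself, GUCD1 (1.0076) and VDR (1.0043) lay just inside and SHTN1 (0.9964) and CD9 (0.9948) just outside on the higher side, while QKI (-1.0024) and ZMYM3 (-1.0046) lay just inside and USP14 (-0.9975) and EIF3M (-0.9960) just outside on the lower side.

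**Figure D4:**
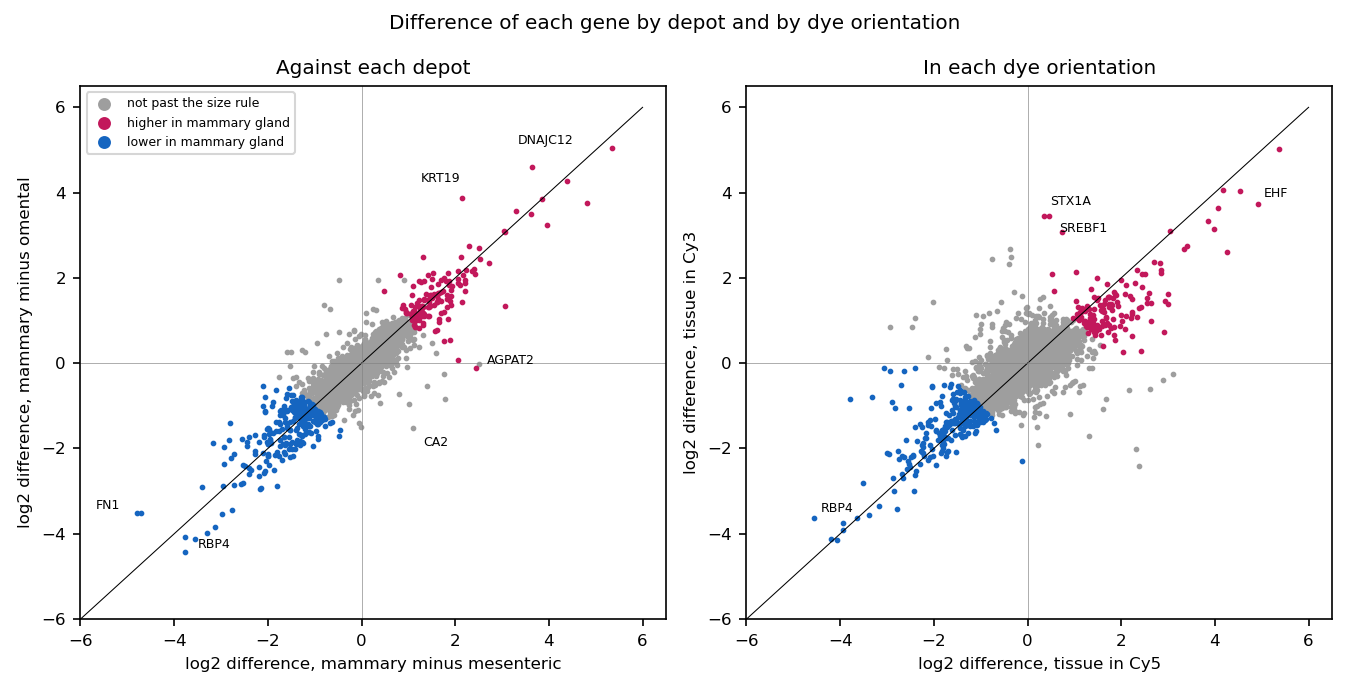
Log2 difference of each of the 4318 genes, in the left panel against omental (y axis) and mesenteric adipose tissue (x axis), in the right panel with the tissue in Cy3 (y axis) and in Cy5 (x axis), where each point is a gene and the line marks equal values. Most called genes lie along the line in both panels, while AGPAT2 in the left panel and SREBF1 and STX1A in the right panel lie far from it.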

How the data were processed

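The deposited value table of the series was used. Per the labels' protocols, the authors labelled 20 ug of RNA per sample, left it 2 days on the slides at 42 C, and read scans of a ScanArray 4000 in GenePix 4.0. How they corrected background or normalised is not given there. As deposited, values fit log2 ratios between dyes, because 61 values on the 6 arrays sat at 16.61, the log2 of 100000. These were set missing. As deposited, array medians were near 0 with the tissue in Cy5 (-0.036 to -0.011) and between -1.14 and -0.48 with the tissue in Cy3. The base of the logarithm and the direction of the ratio are not stated. Arrays with the tissue in Cy3 correlated with the other array of their tissue at -0.73 to -0.67 and were multiplied by -1, on the reading that ratios are Cy5 over Cy3. With the other direction every difference changes sign. The labels of 1 omental array (tissue in Cy5) contradict each other, and its dye label was followed.

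Each array was centred on its median, neighbouring duplicate spots (r of 0.83 to 0.88) were averaged into 8208 elements, and elements of a gene were averaged. Names were placed by searching 768 annotation and 1024 table layouts for agreement between clones of a gene: the chosen layout reached a mean cosine of 0.47 over 1106 clone pairs, against 0.10 for the next and 0.03 for identifiers at face value, and 0.77 over the 432 pairs with profiles longer than 1. It was chosen after seeing the data. Of 5472 named elements on 20 source plates, 5467 matched RefSeq (ARS-UCD2.0). The files name no genome build, and coordinates were left out.

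Arrays of a tissue were taken as 1 sample, with no test. Scripts used python 3.11.15, numpy 2.4.6 and pandas 2.3.3, and limma 3.58.1 in R 4.3.3 for 1 alternative, and were tested on simulated data. Genes could be named if among the 15 largest in each direction with both depots on the same side, in the lists on milk, lipid, transport, lactogenic signalling, epithelium or adipocytes, among up to 6 called and 2 uncalled members of other lists, or at the threshold or split by depot. The text gives part of these, picked with their values known. The genes AGRN, AP1S3, AP2A2, CD14, CD163, CD3D, CD3E, CD68, CDH5, COL4A2, CPT1A, DCN, EGR1, FBLN1, GPX1, GSR, HSP90B1, KDR, MFAP4, MMP2, MYH11, MYL9, NDUFB10, NQO1, PCNA, PDIA4, PFKL, PFKP, PPIB, PRDX1, PRDX5, RPS15A, SOD1, SOD2, STX1A, TAGLN, THBS1 and TXNRD1 lie outside this rule and were named after their values were seen. The members and lists were chosen with earlier results of these data known. Alternatives covered centring, quantile normalisation, each orientation, each array, each depot, the subcutaneous depot, ceiling values, elements, names and thresholds.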

Additional observations from a re-analysis of the deposited data

Results flagged for a closer look

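CA2, the carbonic anhydrase of red cells and many epithelia, lay on opposite sides of the visceral depots: mammary gland was 1.09 above mesenteric and 1.51 units under omental adipose tissue (a difference of -1.51), on both arrays of each pair. CEBPD, a transcription factor of early fat cell differentiation, did so too, at 0.80 against mesenteric and -0.71 against omental adipose tissue. The difference between the depots was not tested in either gene, since each depot was 1 sample.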

How the results depend on the processing

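Between 140 and 199 genes were higher and between 250 and 324 lower when 1 array was left out, and the SD over genes then ran from 0.64 to 0.74. With the tissue in Cy5 alone the SD was 0.75, with 207 genes higher and 351 lower. The counts were 356 and 668 at 1.5-fold, 26 and 47 at 4-fold, and 87 and 164 when 2-fold was asked in both orientations and against both depots. The other settings, among them no centring (185 and 189) and quantile normalisation (162 and 242), kept both counts within 1.5 times. In all 6 settings that left out a visceral array within its orientation or kept a single orientation, 87 higher and 174 lower calls held. AGPAT2 (1.17) reversed in 3 settings: to -0.17 without the mesenteric array that carried the tissue in Cy5 (replicate 2, within its dye orientation, a setting added after seeing the data), to -0.11 against omental adipose tissue alone and to -0.78 with ceiling values kept. No other called gene among the 258 named reversed. Taking each depot as a sample of its own, limma called 460 genes at an adjusted p under 0.05, 168 higher and 292 lower, on 1 residual degree of freedom. The lone mammary sample was assumed to vary like the depots, so this is no test of the tissues. No paired analysis was possible because the labels number no replicates and the arrays of a tissue differ only in dye. Signal over background was not analysed here, so dim spots could not be set apart.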

Other observations

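Other epithelial genes, named after their values were seen, were higher in mammary gland. They included the transcription factor genes TFAP2A (1.81 ± 0.82 over 2 elements at 0.80 and 2.82), TFAP2C (1.24 ± 0.09), GRHL1 (1.24 ± 0.36) and GATA3 (1.25 ± 0.59, with elements at -0.26 and 2.76), of which GATA3 is known for its part in mammary luminal cells. The polarity genes PATJ (1.34 ± 0.07) and PRKCZ (1.74 ± 0.27) were higher, unlike the listed polarity genes CRB3, PARD6B, LLGL2 and PARD3, of which none was. Also higher were GGT1, an enzyme of glutathione uptake (2.02 ± 0.61), CTNS, the lysosomal cystine exporter (1.86 ± 0.36), and GALNT3, which starts mucin glycosylation (1.48 ± 0.07).

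The genes that follow were also picked after their values were seen. Complement genes beyond C1q were mixed. C1R stood at -1.70 ± 0.38, C1S at -1.51 ± 0.10, C2 at -1.45 ± 0.23 and CFP (properdin) at -1.09 ± 0.22, all lower by the size rule, while CFD did not pass (-0.08 ± 0.04) and CD59, an inhibitor of complement, was higher at 1.88 ± 0.31. The CFP call was lost in at least 1 of the 6 settings (-1.31 to -0.88). EPAS1, an oxygen-regulated transcription factor abundant in vessels, was lower on all of its 5 elements (-1.84 ± 0.05, elements at -1.95 to -1.75), and ABCA1, a cholesterol exporter, on all 4 (-1.76 ± 0.13). The peroxisomal genes PHYH (-2.09 ± 0.27) and ABCD3 (-1.19 ± 0.00) were lower as well. Among elements without a gene name, 89 were higher and 118 lower in mammary gland by the same rule. Of all 8008 elements with values on the 6 arrays, 5396 were named. Over those 8008 elements 269 were higher and 479 lower.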
